A study of Homo sapiens with 10 samples.

Results

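The 4 human HOX gene clusters and the DNA that flanks them were examined for MAML3 and RARα peaks in SK-N-SH cells, with or without retinoic acid. The regions were fixed windows on hg19, namely chr7:26900001-27500000 for HOXA, chr17:46500001-46900000 for HOXB, chr12:54230001-54550000 for HOXC and chr2:176500001-177600000 for HOXD. Every deposited peak that touched a window was taken, whatever its score. Of 26482 peaks in 8 lists, 51 lay in the windows, and joining overlapping peaks (at least 1 bp in common) gave 18 of the 10581 sites found in all. The HOXD window held 15 of the 18 sites, the HOXC window 2 and the HOXA window 1, while the HOXB window had no listed peak.

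SK-N-SH is an established human neuroblastoma line. All cells were moved to medium with charcoal-stripped serum, which is low in retinoids and steroids, 24 hours ahead of treatment. As treatment they got 1 µM retinoic acid (RA) or, for the untreated libraries (UT), the vehicle, and chromatin was precipitated with a Bethyl antibody against MAML3 or with a Santa Cruz antibody against RARα. Each antibody and treatment has 2 libraries, which makes 4 groups and 8 peak lists, and 2 input samples were not analysed here.

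HOX genes encode homeodomain transcription factors that give cells a position along the body axis, and within a cluster the order of the genes follows the order in which they are used. Retinoic acid is a classical inducer of HOX genes, acting through retinoic acid receptors such as RARα, a nuclear receptor that pairs with RXR on direct repeats of a hexamer. The HOXD cluster stands between gene deserts that carry long-range enhancers for limb, digit and trunk expression. MAML3 is a mastermind-like coactivator, a family best known for joining the Notch intracellular domain and RBPJ.

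Lists ran from 251 peaks (RARα UT 2) to 7532 (MAML3 RA 1), and no source used here gives read depth. The list name of RARα UT 2 carries a merged tag that no label explains. By their name tags the 2 MAML3 UT lists, of 2222 and 6759 peaks, may be 1 library on 2 lanes. Whether replicates were separate cultures is not stated, and p-values may therefore measure technical spread only. Each peak has a score that the authors deposited, which was read only within its own list. A site missing from a list was not called there, and is not shown to be unbound. All peak positions are on hg19, counted from 1.

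The HOX genes themselves were almost free of peaks. The part of each window that holds the genes, called its body, spans 120 kb for HOXA, 210 kb for HOXB, 120 kb for HOXC and 110 kb for HOXD, 560 kb in all, and the other 1860 kb are flank. A single peak fell in a body, in 1 of the 8 lists. That peak, at chr12:54445860-54446059 in HOXC, was held by MAML3 RA 2 with a score of 71.08, rank 6148 of 6230, and its end lay 3.9 kb inside the upper limit of the body. It was absent from MAML3 RA 1 and from both UT lists. No RARα list had a peak in any body.

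Peaks spread at the mean density of each list would put 0.424, 1.29, 1.44 and 1.19 of them in the bodies for MAML3 UT 1, UT 2, RA 1 and RA 2. For RARα the same figure was 0.252, 0.0479, 0.21 and 0.203. The empty bodies are therefore close to what short stretches of the genome usually show in these lists. Of the stretches of 110 kb in the listed range, from the first to the last listed peak of each chromosome, 77.3% had no MAML3 site, as had 75.8% of those of 120 kb and 64.8% of those of 210 kb. A count of 0 in the bodies allows up to 0.0398% of the list for MAML3 RA 1, the longest, and up to 1.2% for RARα UT 2, the shortest, by counting error alone.

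The peak-free stretches reached well past the genes. Around HOXB no MAML3 list had a peak over 3180 kb, from 518 kb below the body to 2451 kb above it, and 78 of 10227 stretches between MAML3 sites were at least that long. The median stretch was 75.8 kb. Around HOXA the empty stretch was 968 kb, and 698 stretches were at least that long. Around HOXD it was 647 kb, from 194 kb below the body to 342 kb above it, and 1159 stretches were as long or longer. By length, stretches at least as long as those around HOXB, HOXA and HOXD made up 15.5, 49.7 and 62.3% of the listed range. A given place falls more readily into a long stretch than a short one, so the counts alone make these stretches look rarer than they are. The longest MAML3-free stretch next to a body was the one above HOXC, where the next MAML3 peak was 9656 kb away in all 4 lists. Of all stretches 7, this included, were that long or longer. This holds for MAML3 and for the upper side only.

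The nearest RARα peaks lay at varied distances from the bodies. The nearest to the HOXD body were 194 kb below and 379 kb above. For HOXA they were 1233 kb below and 452 kb above, the latter in the 4 RARα lists alike but outside the window. For HOXB they were 474 kb below and 3010 kb above. With 2120 RARα sites over a listed range of 2936 Mb, these distances are not shown to be unusual. The usual spacing of RARα sites was not worked out. At HOXC a peak of RARα RA 1 lay in the upper flank, 33.3 kb above the body, at chr12:54483327-54483476. It scored 92.92, percentile 30.6 of its list, and it was the only site of the windows held by RARα without MAML3.

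The promoters of the HOX genes were read for the letters that retinoic acid receptors bind, as a description of sequence that these lists left without peaks. RefSeq windows on GRCh38.p14, from 250 bases before to 50 after a gene's start, were at hand for 20 of the 38 HOX genes: HOXA2, HOXA3, HOXA4, HOXA6, HOXA7, HOXA9, HOXA10, HOXA11, HOXA13, HOXB1, HOXC4, HOXC5, HOXD1, HOXD3, HOXD4, HOXD8, HOXD10, HOXD11, HOXD12 and HOXD13. These positions belong to another build than the peaks, and no peak was tied to a gene. The hexamers searched on both strands were AGGTCA and AGTTCA and GGGTCA and GGTTCA. At least 1 of them stood in 8 of the 20 (40%), in HOXA3, HOXA11, HOXB1, HOXC4, HOXC5, HOXD8, HOXD10 and HOXD13, against 43.7% of all 27305 genes in the table. HOXA3 had 5 over its 7 alternative starts, and the match of HOXC5 is the same window as that of HOXC4.

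The matches of HOXD13, HOXD10, HOXD8, HOXA11 and HOXC4 are shown because each is the only hexamer in its promoter and lies before the start. Each line gives 30 bases of the gene's strand, 5′ to 3′, with the hexamer or its reverse complement in capitals.
HOXD13: cccctcccaaccTGAACTtcgtttttataa
HOXD10: ctctggagcacgTGACCCgagaggaggctg
HOXD8: ggccgtagcgacTGAACTgcgcgcggatcc
HOXA11: aatttcaacatcGGGTCAcatgaccagcac
HOXC4: catccatgaacgTGAACTttttattgtggt
On GRCh38.p14 these stretches are chr2:176092669-176092698, chr2:176116664-176116693, chr2:176129675-176129704, chr7:27185286-27185315 (minus strand) and chr12:54016838-54016867. The hexamers stand 34, 96, 12, 65 and 32 bases before the start.

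No direct repeat of these hexamers, spaced by 1, 2 or 5 bases, was found in the 20 HOX promoters. Over all genes such repeats were in 0.161, 0.0513 and 0.106% of promoters, and a count of 0 in 20 is close to that background. Of 9 genes of retinoic acid reception and turnover (RARA, RARB, RARG, RXRA, RXRB, RXRG, CYP26A1, CYP26B1 and DHRS3), all in the table, 2 held the repeat with a spacing of 5. They are RARB, a retinoic acid receptor, and CYP26A1, the enzyme that clears retinoic acid, shown for comparison with both hexamers in capitals.
RARB: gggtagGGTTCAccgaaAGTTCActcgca
CYP26A1: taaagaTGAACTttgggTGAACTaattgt
They lie 36 and 73 bases before a start, at chr3:25428204-25428232 and chr10:93073797-93073825. The absence of these letters says nothing of the HOX genes outside the 300 bases read.

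Other motifs were also counted in the 20 HOX promoters. The core TGGGAA that RBPJ recognises was in 1 of 20, HOXA4, against 28.1% of all genes. TGATT with any base and then AT, read by PBX with a HOX partner, was in HOXA2 and HOXD11 (10.0% against 3.47%). TGACAG, read by MEIS, was in HOXA2, HOXA4, HOXA13 and HOXD4 (20% against 18.6%).

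In contrast to the bodies, the flanks of HOXD were dense in peaks. They span 990 kb, of which 450 kb lie on the centromeric side, next to HOXD13, and 540 kb on the telomeric side, next to HOXD1. MAML3 UT lists had 3 and 8 peaks there and MAML3 RA lists 12 and 13, where the mean density of each list would put 0.749, 2.28, 2.54 and 2.1. RARα UT lists had 2 and 1 peaks and RARα RA lists 4 and 3, against 0.445, 0.0846, 0.372 and 0.359 at their mean density. All 8 lists thus had more peaks in the HOXD flanks than their length alone would put there. In RARα UT 2 a single peak was enough for that, and the lists share sites, so they are not 8 separate observations. How many other stretches of 990 kb hold as many peaks was not counted. In the 870 kb of flank around the other 3 clusters, the MAML3 lists had 1, 1, 1 and 0 peaks and the RARα lists 0, 0, 1 and 0. These were no more than the mean density would give, except in MAML3 UT 1 (0.659) and RARα RA 1 (0.327).

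**Figure D1:**
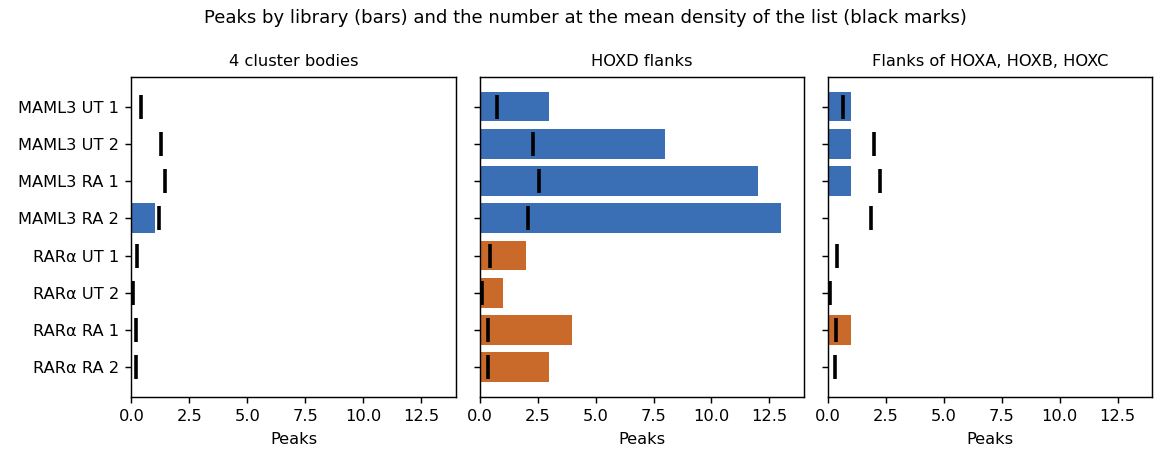
Number of peaks in each of the 8 libraries (bars, blue for MAML3 and orange for RARα) in the 4 cluster bodies, the HOXD flanks and the flanks of HOXA, HOXB and HOXC, with black marks for the number expected at the mean density of the same list. In the HOXD flanks every bar passes its mark, by 12 peaks against 2.54 in MAML3 RA 1, while the bodies hold 1 peak in all.

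Per 100 kb of flank, MAML3 lists had 0.215, 0.484, 0.699 and 0.699 peaks, and per 100 kb of body they had 0, 0, 0 and 0.179. The mean difference, body minus flank, was -0.48 peaks per 100 kb (0.0447 ± 0.0895 against 0.524 ± 0.23, SD, n = 4; exact sign-flip permutation test, two-sided, p = 0.13). Flank exceeded body in each MAML3 library, and 0.13 is the smallest p that 4 libraries allow. These lists share sites, and the UT lists may be 1 library, so they are not 4 separate observations. For RARα the flanks had 0.108, 0.0538, 0.269 and 0.161 peaks per 100 kb and the bodies none, a difference of -0.148 (exact sign-flip permutation test, two-sided, p = 0.13, n = 4). The mean density of the RARα lists would put only 0.0479 to 0.252 peaks in the bodies. Any flank peak was therefore likely to set this order, and the RARα test carries little information. For both antibodies the difference came from the HOXD window. Without it, body minus flank was -0.0307 for MAML3 (exact permutation p = 0.625, n = 4) and -0.0287 for RARα (exact permutation p = 1, n = 4).

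The windows took similar, small shares of the MAML3 lists. MAML3 UT 1 and UT 2 had 4 and 9 peaks in the windows, 0.18% (95% exact Clopper-Pearson interval 0.0491 to 0.46) and 0.133% (0.0609 to 0.253) of their lists. MAML3 RA 1 and RA 2 had 13 and 14 peaks, 0.173% (0.0919 to 0.295) and 0.225% (0.123 to 0.377). The windows make up 0.0824% of the listed range. The shares of the UT and RA lists overlapped, with means of 0.157 ± 0.0332% and 0.199 ± 0.0368% (SD, n = 2; exact permutation test, two-sided, p = 0.667), in a design where no p can fall below 0.333. The intervals cover counting error only.

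RARα lists gave a higher and more scattered share. RARα UT 1 and UT 2 had 2 and 1 peaks, 0.151% (0.0183 to 0.546) and 0.398% (0.0101 to 2.2). RARα RA 1 and RA 2 had 5 and 3 peaks, 0.453% (0.147 to 1.05) and 0.282% (0.0582 to 0.822). The treatments again overlapped, at 0.275 ± 0.175% and 0.367 ± 0.121% (SD, n = 2; exact permutation test, two-sided, p = 0.667). Without RARα UT 1 the RA share was lower than the UT share, by -0.0308 percentage points.

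Between the antibodies the share was 0.321 ± 0.134% for RARα and 0.178 ± 0.0377% for MAML3 (SD, n = 4), a difference of 0.144 percentage points (exact permutation test, two-sided, p = 0.114). RARα UT 1 was lower than 3 of the MAML3 lists. This difference varied with the peaks kept. It was 0.238 with the 50% of peaks of highest score in each list and 0.361 with lists cut to 2222 (MAML3) or 251 (RARα) peaks, each with an exact permutation p of 0.0286 (n = 4), and 0.2 without RARα UT 1 (exact permutation p = 0.0286, n = 3 and 4). Without the group of neighbouring telomeric HOXD sites described next it was 0.0105 (exact permutation p = 0.914, n = 4).

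The HOXD sites stood far from the genes on both sides. On the centromeric side 5 sites lay 195 to 397 kb from the body, and on the telomeric side 10 sites lay 343 to 509 kb from it. In the RefSeq order on GRCh38.p14 the protein-coding neighbours on the HOXD13 side are EVX2, a homeobox gene, LNPK and ATP5MC3, and those on the HOXD1 side are MTX2, HNRNPA3 and NFE2L2. Which of these genes a site is nearest to was not determined, since no hg19 annotation was used.

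**Figure D2:**
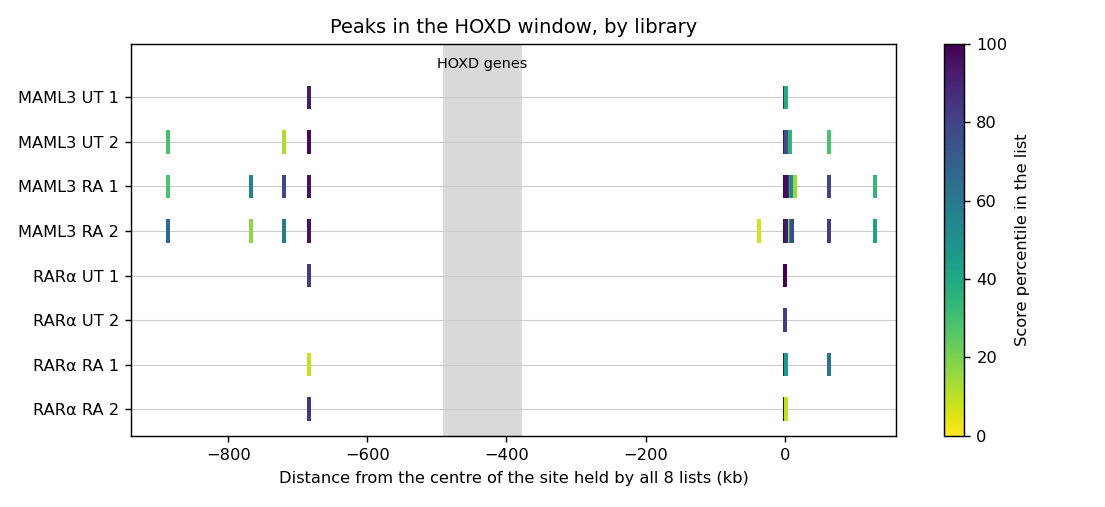
Peaks of the 8 libraries along the HOXD window, as distance in kb from the centre of the site that all 8 lists hold, coloured by score percentile within the list, with the HOXD genes as a grey band. Peaks sit on both sides and none in the band, and the telomeric side holds 2 and 4 peaks in the MAML3 UT lists and 8 and 9 in the RA lists.

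The leading telomeric site, at chr2:177439018-177439731, was the only site of the windows in all 8 lists, 379 kb from the body. Its MAML3 scores were 414.15 and 918.26 in the UT lists (ranks 225 and 315) and 2910.15 and 2727.93 in the RA lists (ranks 17 and 12). Its RARα scores were 949.8 and 210.3 in the UT lists (ranks 5 and 46) and 484.96 and 943.32 in the RA lists (ranks 47 and 4). The site was thus among the 50 highest peaks of each RARα list, treated or not, though the list of UT 2 has only 251. It was among the 20 highest in both MAML3 RA lists and in neither UT list, lists that differ in length.

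The leading centromeric site, at chr2:176754419-176755068, was in 7 lists, 195 kb from the body. Its MAML3 scores were 517.05 and 1330.02 in the UT lists (ranks 157 and 157) and 924.82 and 850.65 in the RA lists (ranks 303 and 264). Its RARα scores were 219.09 in UT 1 (rank 232), 74.25 in RA 1 (rank 1013) and 264.87 in RA 2 (rank 165), and RARα UT 2 did not list it.

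Set against each other within a list, these 2 sites changed order with treatment for MAML3. The telomeric score was 0.801 and 0.69 times the centromeric score in the UT lists and 3.15 and 3.21 times in the RA lists. The treatments did not overlap, and each pair of lists gave similar ratios. The 2 UT lists may be 1 library, so the likeness of their ratios may be technical. In the RARα lists that hold both sites, the telomeric site led at 4.34 times in UT 1 and at 6.53 and 3.56 times in RA 1 and RA 2. Of the 1723 MAML3 sites in all 4 lists apart from the centromeric one, the telomeric one included, 3.19% passed the centromeric site in the same way, lower in both UT lists and higher in both RA lists, and 0.174% did the opposite. Few sites could do either, since the centromeric site stood at rank 157 in both UT lists and at 303 and 264 in the RA lists. In each list most of the 1723 scored below it, so these shares do not show how unusual the change of order was. The pair was singled out after its values were seen.

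**Figure D3:**
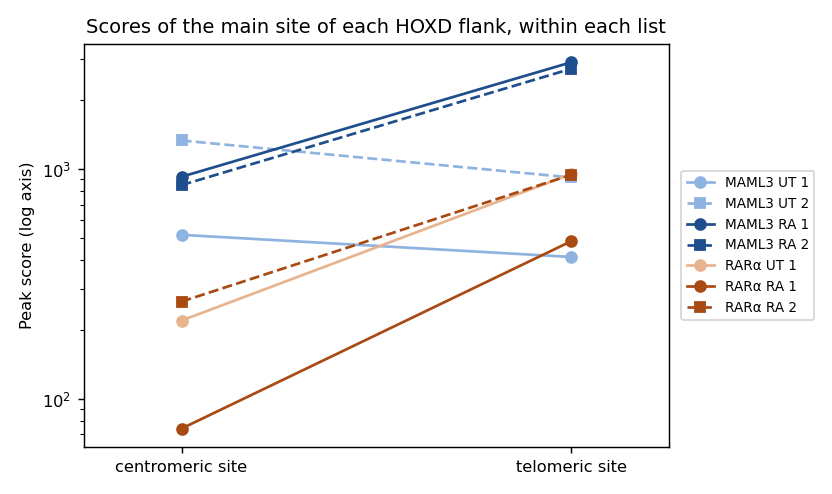
Deposited peak scores (log axis) of the leading centromeric and telomeric HOXD sites, joined within each of the 7 lists that hold both. The lines of the 2 MAML3 UT lists fall (ratios 0.801 and 0.69) and those of the 2 MAML3 RA lists rise (3.15 and 3.21), while all 3 RARα lines rise.

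The leading telomeric site opened a run of 7 MAML3 sites, each less than 5 kb from the next, over 16.2 kb at chr2:177439018-177455168. Their midpoints were 2632, 4444, 1006, 1050, 1944 and 4593 bp apart. The run was recognised after the data were seen. Of 10251 MAML3 sites, 2 (0.0195%) began a stretch of 17 kb with at least 7 MAML3 sites, the first site of the run among them. Both the length and the number were taken from the run itself, so this share is no test of how rare such density is. Sites of the run counted here if any of the 4 MAML3 lists held them.

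MAML3 UT lists had 2 and 3 peaks in the run and both MAML3 RA lists had 6, which covered 788 and 1100 bp against 2550 and 2700 bp. The treatments did not overlap, but with 2 libraries each the exact permutation p was 0.333, the smallest possible. RARα lists had 1 peak each when untreated and 2 each with RA (exact permutation test, two-sided, p = 0.333, n = 2). At equal list length the MAML3 order remained and the RARα order did not. Among the 2222 highest peaks of each MAML3 list the run held 2 and 2 peaks in UT and 3 and 4 in RA. With the 3 long MAML3 lists cut to 6230 peaks it held 3 in UT 2, 5 in RA 1 and 6 in RA 2. At 251 peaks each RARα list kept 1.

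**Figure D4:**
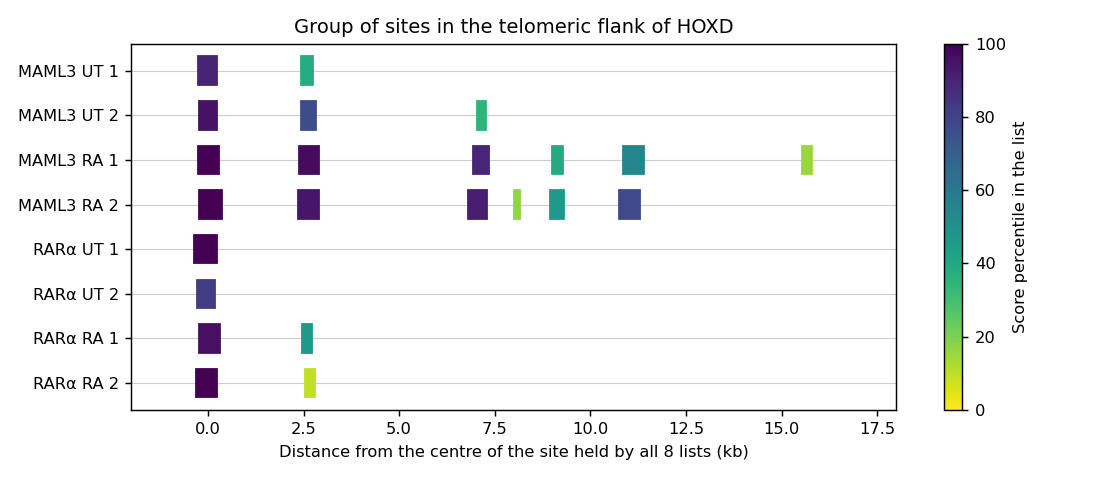
The run of 7 sites on the telomeric side of HOXD, with each library's peaks drawn to scale by distance in kb from the centre of the site in all 8 lists and coloured by score percentile within the list. MAML3 UT lists show 2 and 3 peaks, MAML3 RA lists 6 each, and RARα lists 1 (UT) or 2 (RA).

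The members of the run differed in strength. The next site, at chr2:177441732-177442281, had MAML3 scores of 109.73 and 318.77 in UT and 1074.51 and 697.71 in RA, and RARα scores of 111.6 and 74.71 in the RA lists only. The one after it, at chr2:177446182-177446718, was missing from MAML3 UT 1 and scored 119.5 in UT 2 and 518.24 and 553.36 in RA. The other 4 were held by RA lists alone. Of these, chr2:177448332-177448681 (118.91 and 130.65) and chr2:177450132-177450768 (155.39 and 279.91) were in both MAML3 RA lists, chr2:177447382-177447531 in RA 2 alone (85.04) and chr2:177454919-177455168 in RA 1 alone (83.94).

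Sites present in both RA lists and neither UT list were called gained, and the reverse lost. Of the 17 MAML3 sites in the windows, 4 were gained (23.5%, 95% exact interval 6.81 to 49.9), against 9.37% of all 10251 MAML3 sites. None was lost (up to 19.5%), against 0.683% of all, and 3 were in all 4 lists (17.6%, 3.8 to 43.4), against 16.8% of all. The interval of the gained share includes the share over all sites, so the windows were not distinguished from the rest of the genome in this count. A further 5 sites were in 1 MAML3 list each.

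The 4 gained sites all flanked HOXD. Next to the 2 in the run, chr2:176671732-176672168 on the centromeric side scored 160.17 and 85.19 (score percentiles 55.6 and 17.1 within the RA lists). The most distal, chr2:177568969-177569431, 509 kb above the body, scored 108.58 and 123.65 (percentiles 34.0 and 42.8). The 2 in the run stood at percentiles 39.3 and 46.0 and at 54.1 and 77.4, and the median over all 961 gained MAML3 sites was 36.2. The number depended on the libraries: 8 sites were gained without MAML3 UT 2, the long UT list, and 7 without MAML3 RA 1. With lists cut to 2222 peaks 2 were gained, neither of them among the 4, and the HOXA site was lost. With the 50% of highest scores 4 were gained, 1 of which was among the 4. The share gained over all MAML3 sites under these settings is not given here, so these counts describe the windows only.

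Among the 5 RARα sites of the windows, 1 was gained (20%, 0.505 to 71.6, against 5.42% of all 2120 RARα sites), the second site of the run. It lay low in the RARα lists and was not gained with the 50% of highest scores or with 251 peaks a list. Without RARα UT 1 the number was 2, and without RARα RA 2 it was 3, again with no share over all sites beside them. No RARα site was lost (up to 52.2%, against 0.472%), and 1 was in all 4 lists (20%, against 6.75%).

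Where RARα and MAML3 met, their peaks had nearly the same centres. Of 17 MAML3 sites, 4 overlapped a RARα peak (23.5%, 6.81 to 49.9, against 17.0% of all MAML3 sites), and of 5 RARα sites, 4 overlapped a MAML3 peak (80.0%, 28.4 to 99.5, against 84.4% of all RARα sites). All 4 flanked HOXD: the leading centromeric site, the first 2 sites of the run, and chr2:177503182-177503731, 443 kb above the body. The last had MAML3 scores of 106.88 in UT 2, 330.3 in RA 1 and 354.98 in RA 2, and a RARα score of 142.73 in RA 1. The mean RARα midpoint differed from the mean MAML3 midpoint by 8, -43, 3 and -75 bp at these sites, in that order, while the midpoints of single peaks of both antibodies ranged over 81, 114, 84 and 107 bp. The midpoints of the antibodies overlapped in range at 3 of the 4 sites, and at the last the single RARα midpoint lay below those of the 3 MAML3 peaks. These 4 sites were taken because their peaks overlap, which limits how far apart centres can lie. The offset over all such sites was not worked out.

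The remaining sites held MAML3 alone. On the centromeric side, chr2:176552232-176552581 scored 106.97 in UT 2 and 99.6 and 199.17 in RA, and chr2:176719382-176719781 scored 82.14 in UT 2 and 318.13 and 170.17 in RA. Both were missing from MAML3 UT 1, the short list. A neighbour of the latter, chr2:176718804-176719053, was in UT 2 alone (93.41), and on the telomeric side chr2:177402632-177402831 was in RA 2 alone (74.92). The site of the HOXA window, chr7:27493700-27494146, lay 244 kb above the body, close to the end of the window, with scores of 176.45 in UT 1, 305.72 in UT 2 and 170.26 in RA 1. RA 2 did not list it, which made it the only site of the windows held by both MAML3 UT lists but not by both RA lists.

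Peak names are numbered, and 2.86 to 35.1% of the numbers in a list are not among the peaks analysed. Between listed peaks of a window 1 such number fell, in the HOXD window of RARα RA 1. Between the nearest listed peaks around the windows 19 fell over the 8 lists, 11 of them around HOXD in RARα UT 2, and where those peaks lie was not analysed here.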

How the data were processed

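Libraries were amplified for 15 cycles, per the labels' protocols. BWA 0.5.9, MACS, bedtools and hg19 are named per the submitters' processing notes; no source used here gives the threshold, control or filter lists. Every deposited list holds positions and 1 score per peak, which the authors deposited without stating its scale. Read depth is not given, so precision rests on peak counts.

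The windows, genes and lists were chosen with earlier results of these data known. Body limits were set by hand from general knowledge of hg19, rounded to 10 kb. Peaks were merged at 1 bp overlap. The sites to be named were those held by all 4 libraries of an antibody, by a RARα library, or gained or lost; all others were added after their values were seen. Of the partner genes listed for the promoter search, only the retinoid genes are reported here, a narrowing made after the search was run. Shares and densities were compared over libraries with exact permutation tests, two-sided, and scripts were tested on simulated data. Alternatives were overlap of 50% or within 1 kb, the 50% of highest scores, peak numbers and equal list lengths within each antibody. Others were limits moved by 20 kb, no HOXD window, a replicate block and each library left out. The 3 long MAML3 lists at 6230 peaks, without MAML3 UT 1, and the windows without the run were alternatives chosen after seeing the data. Python 3.11.15, numpy 2.4.6, pandas 2.3.3 and matplotlib 3.10.9 were used.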

Additional observations from a re-analysis of the deposited data

How the results depend on the processing

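Of 93 results recomputed under an alternative, 75 were classed as unchanged. A further 12 counts moved by over 1.5 times, 3 differences passed the threshold and 3 reversed. For a difference, unchanged meant that its direction did not reverse and its p stayed on the same side of the threshold. Counts had no test, and unchanged meant only a move of no more than 1.5 times. The body against flank and RA against UT tests have too few libraries to pass the threshold under any setting. Their staying on the same side was therefore fixed in advance and does not show robustness. The RARα minus MAML3 share, 0.144 percentage points, was 0.238 with the 50% of highest scores (exact permutation p = 0.0286, n = 4). It was 0.361 with lists cut to 2222 (MAML3) or 251 (RARα) peaks (exact permutation p = 0.0286, n = 4). That cut made lists equal within an antibody only, so list length still differed between the antibodies. As a number of peaks the difference was -7.25 (exact permutation p = 0.0571, n = 4). Leaving out 1 library gave 0.0996 to 0.2, the highest without RARα UT 1 (exact permutation p = 0.0286). The RARα RA minus UT share was -0.179 with the 50% of highest scores (exact permutation p = 1, n = 2) and -0.0308 to 0.216 with 1 library left out. At equal length within each antibody 2 MAML3 sites were gained, 1 was lost and 2 overlapped RARα. No RARα site was gained there, as with the 50% of highest scores (0). With 1 library left out, 4 to 8 MAML3 sites were gained, 0 to 1 lost, and 1 to 3 RARα sites gained. Without MAML3 UT 1, 4 were gained, the same 4, and 1 was lost, and both counts were the same with the 3 other MAML3 lists also cut to 6230 peaks. The share gained over all sites was not set beside the counts of these settings, and the cause of these shifts was not tested. The replicate numbers share only a number per the labels. With a replicate block the share differed by 0.144 between the antibodies (exact permutation p = 0.25 over 4 pairs), by 0.0421 with RA for MAML3 and by 0.0927 for RARα (exact permutation p = 1 for each, 2 pairs). Limits moved by 20 kb gave body minus flank of -0.539 and -0.495 for MAML3 and -0.162 and -0.136 for RARα. The number of peaks, from 1 to 14 per library, limits each comparison.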
